A study of Mus musculus with 9 samples.

Results

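Glutathione transferases join glutathione to reactive molecules, and 9 genes of this enzyme family, out of 27998 genes in the table, were followed through the cells of mouse ovarian cancer ascites. The genes were Gstm1, Gstm2, Gstm5 and Gstm6 of the mu class, Gsta4 of the alpha class, Gstp1 of the pi class, Gsto1 of the omega class, and the membrane enzymes Mgst1 and Mgst3. They were chosen by earlier readings of the same cells: their spread over tumour-like cells, the way they varied together there, and their level in macrophages. Values of those kinds are therefore given as descriptions.

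The cells were the ascites infiltrate of 1 mouse library, labelled ID8_def29_vegf with the genotype B6_WT. Ascites is the fluid that collects in the peritoneal cavity, and ID8 is a cell line from mouse ovarian surface epithelium, here in the form that carries Def29 (a beta-defensin) and Vegf (a vascular growth factor). The labels name no treatment and no animal number, so the library stands for 1 condition without replicates. A further 8 libraries of the series, 4 of cells given vehicle and 4 of cells given deferiprone for 12 h, have a table whose column names match no label, and it was not used here.

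Conjugation to glutathione makes electrophiles, such as drugs and products of lipid oxidation, more soluble, and transporters then carry the conjugates out of the cell. Some members are cytosolic, whereas others sit in membranes, where they act on lipid peroxides or, in leukocytes, make leukotriene C4. Many family genes are targets of NRF2, the transcription factor that answers oxidative stress through antioxidant response elements, and high levels in tumours have long been studied in connection with resistance to alkylating drugs.

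Barcodes with at least 500 unique molecular identifiers (UMIs, counts of single captured RNA molecules), at least 200 genes and at most 15% mitochondrial UMIs were kept as cells. Of the 6442 cells kept, 3660 (56.8%) were called tumour-like, with at least 3 UMIs summed over Krt8, Krt18, Krt19, Wt1 and Upk3b and at most 1 of the complement genes C1qa, C1qb and C1qc. A further 1076 (16.7%) were called macrophages, with at least 3 UMIs of the complement genes and at most 1 of the keratin set. Tumour-like cells had a median of 5007 UMIs, and macrophages 1639.5. Levels are given as CPM, the UMIs of a gene over all UMIs of the class on the usual scale. All 8 macrophage genes outside the gate were higher in macrophages, for example Csf1r at 1.4 CPM in tumour-like cells and 369 CPM in macrophages. Among tumour genes outside the gate, Lgals7 was at 2576 CPM in tumour-like cells and 292 CPM in macrophages, and Upk1b at 41.1 against 3.15 CPM. The epithelial adhesion gene Cdh1 was at 0 in both, and Epcam was at 1.2 CPM in tumour-like cells, so the name tumour-like rests on keratins and mesothelial genes. Wt1, Upk3b and the keratins are also made by normal mesothelium, from which these cells cannot be told apart by the gate.

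The mu class members lie side by side on chromosome 3. In GENCODE M21 (build GRCm38) the 7 mu class genes cover 149 kb, chr3:107895821-108044894, in the order Gstm5, Gstm7, Gstm6, Gstm3, Gstm2, Gstm1 and Gstm4. Gstm1 is at chr3:108012255-108017973, Gstm2 at chr3:107981702-107986453 and Gstm6 at chr3:107938847-107943749, all on the minus strand. Gstm5 is at chr3:107895821-107898686 on the plus strand. Gsta4 is on chromosome 9 and Mgst1 on chromosome 6. Gstp1 and Gsto1 are on chromosome 19, and Mgst3 is on chromosome 1. All are annotated as protein-coding.

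The upstream sequences of Gstm1, Gstm2 and Gstm6 are shown because these were the 3 members that varied together most over tumour-like cells. That of Gstm5 is shown because it is their neighbour and had lower correlations with them (0.0439 to 0.0728, without correction for counting noise). Each is the 250 bases before a transcription start in RefSeq (GRCm38.p6), 5′ to 3′ on the gene's own strand. The Gstm1 window is chr3:108017974-108018223, minus strand. That of Gstm2 is chr3:107986421-107986670, minus strand. That of Gstm6 is chr3:107943735-107943984, minus strand, at the second of 3 listed starts, the one nearest to the GENCODE start. The Gstm5 window is chr3:107895604-107895853, plus strand. Capitals mark matches, on either strand, to the CCAAT box (CCAAT), an Sp1 site (GGGCGG), an AP-1 site (TGANTCA) or the antioxidant response core (TGACNNNGC), where N is any base.
Gstm1: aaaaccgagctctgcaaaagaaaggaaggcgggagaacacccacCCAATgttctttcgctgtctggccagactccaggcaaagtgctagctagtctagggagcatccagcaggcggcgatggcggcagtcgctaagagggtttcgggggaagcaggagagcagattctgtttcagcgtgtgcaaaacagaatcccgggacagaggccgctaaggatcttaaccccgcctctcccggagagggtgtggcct
Gstm2: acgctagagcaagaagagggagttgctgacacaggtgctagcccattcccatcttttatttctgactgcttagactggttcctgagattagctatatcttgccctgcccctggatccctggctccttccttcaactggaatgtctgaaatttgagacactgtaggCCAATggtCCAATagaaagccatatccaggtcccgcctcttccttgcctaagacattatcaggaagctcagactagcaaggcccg
Gstm6: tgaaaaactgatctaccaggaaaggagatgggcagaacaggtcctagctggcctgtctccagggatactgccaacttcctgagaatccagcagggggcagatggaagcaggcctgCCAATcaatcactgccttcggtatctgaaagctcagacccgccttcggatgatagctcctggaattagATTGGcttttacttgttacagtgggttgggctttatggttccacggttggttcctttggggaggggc
Gstm5: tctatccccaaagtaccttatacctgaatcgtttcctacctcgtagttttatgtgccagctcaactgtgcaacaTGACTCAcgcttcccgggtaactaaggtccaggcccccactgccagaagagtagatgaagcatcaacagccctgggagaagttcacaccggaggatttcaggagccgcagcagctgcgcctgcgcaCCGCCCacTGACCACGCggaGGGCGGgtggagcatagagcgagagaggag
Each of the Gstm1, Gstm2 and Gstm6 windows held a CCAAT box, and none of them held any of the other 3 motifs. The Gstm5 window held the antioxidant response core TGACCACGC, with its first base 42 bases before the start, an AP-1 site and 2 Sp1 sites, and no CCAAT box. CCAAT was in 33.8% of 32851 promoters of this length, GGGCGG in 32.7%, TGACNNNGC in 10.2% and TGANTCA in 6.75%. The CCAAT box was also in both starts listed for Gstm1 and all 3 listed for Gstm6, in both listed for each of Gstm7 and Gstm4, and in no window of Gstp1, Gsto1, Mgst1, Mgst3 or Gstm3. No window was matched for Gsta4. Gstp1, Gsto1, Mgst1, Mgst3 and Gstm3 each had GGGCGG in the window of their first start. Both Gstm4 windows held GGGCGG beside the CCAAT box. The first Mgst1 window had the antioxidant response core as well, and the Gstp1 window an AP-1 site. The window of the second Gstm7 start held the antioxidant response core and GGGCGG beside its CCAAT boxes. A match describes the letters only. The windows of Gstm1, Gstm2 and Gstm6 shared no long stretch with one another, the longest common run being 10 bases.

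Tumour-like cells held far more mu class RNA than macrophages. In tumour-like cells Gstm1, the most abundant member, made up 4709 CPM (95% interval 4679 to 4739), against 556 CPM (523 to 590) in macrophages, a ratio of 8.47 (7.98 to 9.01). Intervals are exact Poisson or binomial ones and cover counting error only, as 1 library gives no spread between animals and no test. Gstm2 was at 1909 CPM in tumour-like cells and 182 CPM in macrophages, a ratio of 10.5 (9.46 to 11.7). Gstm6, a less studied member of the same cluster, was at 198 CPM in tumour-like cells and 12.1 CPM in macrophages, 16.4-fold apart (10.9 to 25.9). Gstm5, which in mammals is known chiefly from brain and testis, was at 54.5 CPM in tumour-like cells and 14.2 CPM in macrophages (ratio 3.85, 2.63 to 5.87).

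The other cytosolic members were scarcer. Gsta4, whose enzyme clears 4-hydroxynonenal, a product of lipid peroxidation, was at 88.8 CPM in tumour-like cells and 8.92 CPM in macrophages (ratio 9.96, 6.20 to 17.1). Gstp1, a pi class enzyme raised in many human tumours, was at 130 CPM in tumour-like cells and 62.4 CPM in macrophages (ratio 2.08, 1.73 to 2.52). Its level is uncertain, since 91.2% of the 50-base windows in the last 400 bases of its transcript also occur in Gstp2, and how the counting treated such reads is not given in the sources used here. For Gstm1 that share was 1.14%, and for the other 7 members it was 0. The transcript end read is not given, and over the whole transcript the share was 62.3% for Gstp1. It was 10.9% for Gstm1 and 6.73% for Gstm6, both most often with Gstm3, and 1.08% for Gstm2.

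Gsto1 ran the opposite way from all the others. This omega class enzyme, which reduces dehydroascorbate and removes glutathione from proteins, was at 2.15 CPM (1.56 to 2.90) in tumour-like cells and 95.5 CPM (82.1 to 110) in macrophages, 44.4-fold lower in tumour-like cells. Only 41 of 3660 tumour-like cells had a Gsto1 UMI, against 164 of 1076 macrophages, although the tumour-like cells were sequenced more deeply.

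The membrane enzymes were present in both classes. Mgst1, a peroxide-reducing enzyme of the endoplasmic reticulum and mitochondria, was at 969 CPM in tumour-like cells and 321 CPM in macrophages (ratio 3.02, 2.79 to 3.28). Mgst3 was at 75.4 CPM in tumour-like cells and 31.5 CPM in macrophages (ratio 2.40, 1.85 to 3.16). In all, 8 members were more than 2-fold higher in tumour-like cells and 1 was more than 2-fold lower. Of 10184 genes outside the gates with at least 50 UMIs in 1 class or the other, 37.2% were more than 2-fold higher and 10.9% more than 2-fold lower. Members were chosen on this contrast, so the counts describe them and nothing more is read from them. The median log2 ratio, with 5 CPM added to each level, was 1.63 over the members and 0.38 over all genes tested.

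**Figure D1:**
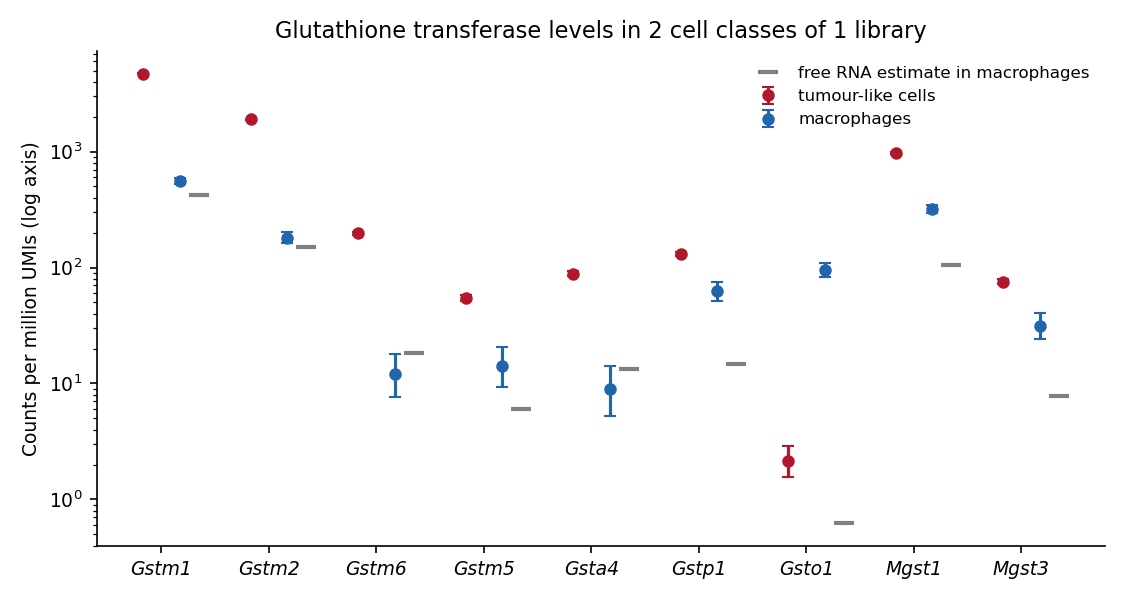
Level of each glutathione transferase gene in tumour-like cells (red, 3660 cells) and macrophages (blue, 1076 cells), in CPM on a log axis, with exact Poisson 95% intervals; grey bars give the level that free RNA would put into macrophages, from barcodes of 100 to 200 UMIs. Gstm1 stands highest at 4709 CPM in tumour-like cells, and Gsto1 is the 1 gene whose macrophage point (95.5 CPM) lies above its tumour-like point (2.15 CPM).

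At equal depth, Gstm1, Gstm2, Gstm6 and Mgst1 were in fewer macrophages than tumour-like cells, and Gsto1 was in more. With every cell reduced to 1000 UMIs, which left out 50 tumour-like cells and 126 macrophages, Gstm1 was seen in 88.2% of tumour-like cells and 43.4% of macrophages. Without that step the shares were 98.2% of tumour-like cells and 59.9% of macrophages. At 1000 UMIs, Gstm2 was in 69.3% of tumour-like cells and 17.4% of macrophages, and Mgst1 in 59.8% of tumour-like cells and 26.6% of macrophages. Gstm6 was in 16.4% of tumour-like cells and 1.47% of macrophages, and Gsto1 in 0.166% of tumour-like cells and 8.74% of macrophages. The counts of Gstm1 per macrophage were spread like a Poisson variable, with 56.6% of cells at 0 where a Poisson of the same mean gives 55.5%. In tumour-like cells at this depth 11.8% had none, where a Poisson gives 0.798%.

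Much of the mu class signal in macrophages was of the size that RNA from broken cells would give. Free RNA is picked up by every droplet, and its make-up can be read from barcodes too poor to hold a cell. In barcodes with 1 to 50 UMIs Gstm1 was at 4144 CPM, and in those with 100 to 200 UMIs at 4516 CPM, close to its level in tumour-like cells. From 8 tumour genes that macrophages should lack, free RNA was put at 12.5% of macrophage UMIs with the poorer barcodes (5.36% to 26.8% over single genes) and 9.40% with the richer ones (5.76% to 17.3%). On those shares free RNA would supply 93.5% or 76.4% of the Gstm1 level seen in macrophages, and 120% or 83.4% of Gstm2. For Gstm6 it would supply 197% or 153% of the level seen and for Gsta4 68.8% or 150%. Whether macrophages held RNA of these genes beyond free RNA was not tested. With free RNA subtracted from both classes, the Gstm1 ratio of tumour-like cells to macrophages came to 124 with the poorer barcodes and 33.0 with the richer ones. The Gstm2 ratio was 58.9 with the richer barcodes and the Gsta4 ratio 31.0 with the poorer ones. In the other cases for Gstm2, Gstm6 and Gsta4 nothing was left in macrophages, and no ratio is given. These ratios depend on the pooled share: over single marker genes the poorer barcodes put 93.2 to 466 CPM of Gstm2 into macrophages, which had 182 CPM. For Gsta4 they put 2.62 to 13.1 CPM there, against 8.92 CPM seen.

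The other members were above the pooled estimate in macrophages. Free RNA would supply 39.7% or 32.9% of the Mgst1 level there, 34.7% or 42.6% of Gstm5 (27 UMIs in all), 29.5% or 23.6% of Gstp1, 18.2% or 24.7% of Mgst3, and 0.429% or 0.654% of Gsto1. At the highest share that a single marker gene gave with the poorer barcodes, it would supply 272 of the 321 CPM of Mgst1, 39.4 of the 62.4 CPM of Gstp1, 12.2 of the 31.5 CPM of Mgst3 and 10.5 of the 14.2 CPM of Gstm5. For Gsto1 it would supply 0.874 of the 95.5 CPM. In tumour-like cells free RNA would supply 4.61% or 7.91% of Gstm1, and 7.96% or 25.5% of the few Gsto1 UMIs.

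Among the remaining cells, the antigen-presenting gate (568 cells with at least 10 UMIs of H2-Ab1, H2-Eb1, H2-Aa and Cd74) had intermediate levels of Gstm1, Gstm2, Gstm6, Gsta4 and Gsto1. Its cells had Gstm1 at 1510 CPM, against 556 CPM in macrophages, 2.72-fold higher (2.51 to 2.94), and Gstm2 at 697 against 182 CPM. Free RNA would supply 57.3% or 46.8% of that Gstm1 level. Over single marker genes it would supply 449 to 1795 CPM with the poorer barcodes and 351 to 1282 CPM with the richer ones. At equal depth, Gstm1 was seen in 50% of the cells of this gate and 43.4% of macrophages. Of the 568 cells, 24 had at least 3 keratin-set UMIs beside at least 2 complement UMIs, and mixing was not tested. The Gsto1 level of this gate was 54.1 CPM, against 95.5 CPM in macrophages. Its Mgst1 level was 331 against 321 CPM, a ratio of 1.03 (0.898 to 1.19). Gstm5 (20.2 against 14.2 CPM), Gstp1 (59.4 against 62.4 CPM) and Mgst3 (24.4 against 31.5 CPM) had intervals of the ratio that span 1. The fibroblast gate held 60 cells with at least 3 UMIs of Col1a1, Col1a2, Col3a1, Dcn and Mgp. Its Gstm1 level was 3597 CPM, 0.764 of that of tumour-like cells (0.717 to 0.813). Free RNA would supply 78.5% of that level with the poorer barcodes and 135% with the richer ones. The richer barcodes put free RNA at 107% of the UMIs of this gate, more than a share can be, so the estimate is rough. The gate gene Dcn was also seen in 71.7% of tumour-like cells. Of the 60 cells in the fibroblast gate, 22 had at least 3 keratin-set UMIs beside at least 2 complement UMIs, and mixing was not tested. The red cell gate (71 cells, median 231 genes) had Gstm1 at 3280 CPM, and the 128 cells in more than 1 gate had 1893 CPM. The part of free RNA in these levels was not estimated. The gates for T cells (22 cells) and B cells (35 cells) held only 25 and 29 Gstm1 UMIs in all. That gave 1368 CPM (885 to 2020) and 1114 CPM (746 to 1600), between the macrophage and tumour-like levels. Free RNA was not estimated for the T and B cell gates. The 822 cells in no gate, with a median of 1009 UMIs, had Gstm1 at 4295 CPM, Mgst1 at 951 CPM and Gsto1 at 19.5 CPM. Tumour-like cells had similar Gstm1 and Mgst1 levels, and so did the barcodes of 1 to 50 UMIs (4144 and 1016 CPM) and of 100 to 200 UMIs (4516 and 1121 CPM).

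The gates had soft edges. Cells just inside the tumour-like gate, with exactly 3 keratin-set UMIs, had Gstm1 at 5784 CPM (269 cells), and those just outside it, with 2, had 4818 CPM (278 cells). On the macrophage side, cells with 3 complement UMIs had Gstm1 at 637 CPM (34 cells), and those with 2 had 1375 CPM (31 cells).

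Other genes of the family were counted next to the shares of all genes tested, 37.2% higher and 10.9% lower. Of 21 further family genes in the table, 13 had at least 50 UMIs in 1 class or the other, and 7 were more than 2-fold higher in tumour-like cells, 3 more than 2-fold lower and 3 in between. Gstm7, which lies between Gstm5 and Gstm6, was at 45.4 CPM in tumour-like cells and 4.72 CPM in macrophages. The 3 lower ones all act in making leukotrienes and prostaglandins, lipid signals of immune cells. Ltc4s, the leukotriene C4 synthase, was at 12.7 CPM in tumour-like cells and 1149 CPM in macrophages. Alox5ap, the partner of 5-lipoxygenase, was at 6.15 CPM in tumour-like cells and 1001 CPM in macrophages. Hpgds, which makes prostaglandin D2 in haematopoietic cells, had 4 UMIs in all tumour-like cells, against 64 in macrophages (33.6 CPM).

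The genes that supply and use glutathione were counted against the same shares, without a test of the difference. Of 14 genes for its synthesis and recycling, 3 were more than 2-fold higher in tumour-like cells and 4 lower. The cystine importer Slc7a11, which feeds the first step, was at 0.25 CPM in tumour-like cells and 45.6 CPM in macrophages. Me1, a source of NADPH, was at 124 CPM in tumour-like cells and 14.2 CPM in macrophages. Both subunits of the rate-limiting enzyme stayed within 2-fold, Gclc at 6.85 CPM in tumour-like cells and 9.97 CPM in macrophages, and Gclm at 43.6 CPM in tumour-like cells and 82.4 CPM in macrophages. Of 11 peroxidases, glutaredoxins and related enzymes, 2 were higher and 3 lower, with Gpx4, which protects membranes from lipid peroxides, at 1194 CPM in tumour-like cells and 1220 CPM in macrophages. Of 6 exporters of conjugates, 4 were higher and 0 lower. Of 15 NRF2 targets outside the family, 2 were higher, 2 lower and 11 within 2-fold. Akr1b8, an aldehyde reductase, was one of the higher pair, at 165 CPM in tumour-like cells and 24.1 CPM in macrophages. Nqo1, the textbook NRF2 target, had 61 UMIs (3.05 CPM) over all tumour-like cells and 3 UMIs in macrophages.

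Tumour-like cells differed widely from one another in Gstm1. To compare them at one depth, each was thinned to 2000 UMIs, and 257 shallower cells were left out. Over the 3403 cells, Gstm1 had a median of 8 UMIs per cell, with quartiles of 3 and 15, a highest value of 51 and an SD of 7.94 around a mean of 9.71. A Poisson count of that mean would put less than 1 cell at 0 (0.206 expected), whereas 165 cells (4.85%) had no Gstm1 UMI. The tenth of cells with the most Gstm1 held 27.1% of its UMIs. Gstm2 behaved likewise, with a mean of 3.94, a median of 3 and a highest value of 22.

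The spread beyond counting noise was expressed as excess CV2, the variance less the mean, divided by the squared mean. It was 0.566 for Gstm1, where the median of 40 genes of similar level (within 1.5-fold) was 0.0518 and 95% of them had less. For Gstm2 it was 0.623, more than 96.8% of 62 such genes. Gstm6 reached 1.13, more than 95.8% of 427 genes, and Gsta4 3.01, more than 99% of 858 genes. Gsta4 UMIs were bunched in few cells, with a mean of 0.187 and a highest value of 8. Mgst1 was more even, at 0.211 (79.5% of 88 genes had less), and so were Mgst3 at 0.349 and Gstm5 at 0.228. Gstp1 had no excess (-0.0357), though other settings gave up to 0.508, and for Gstm5 they ranged between -0.158 and 0.763. Gsto1 was too rare to rate, with 13 UMIs over the thinned cells. Among the 1984 genes with a mean of at least 0.1 UMI, Gsta4 ranked 25 by this measure, Gstm6 67, Gstm2 175 and Gstm1 201, and Gstp1 ranked 1803.

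**Figure D2:**
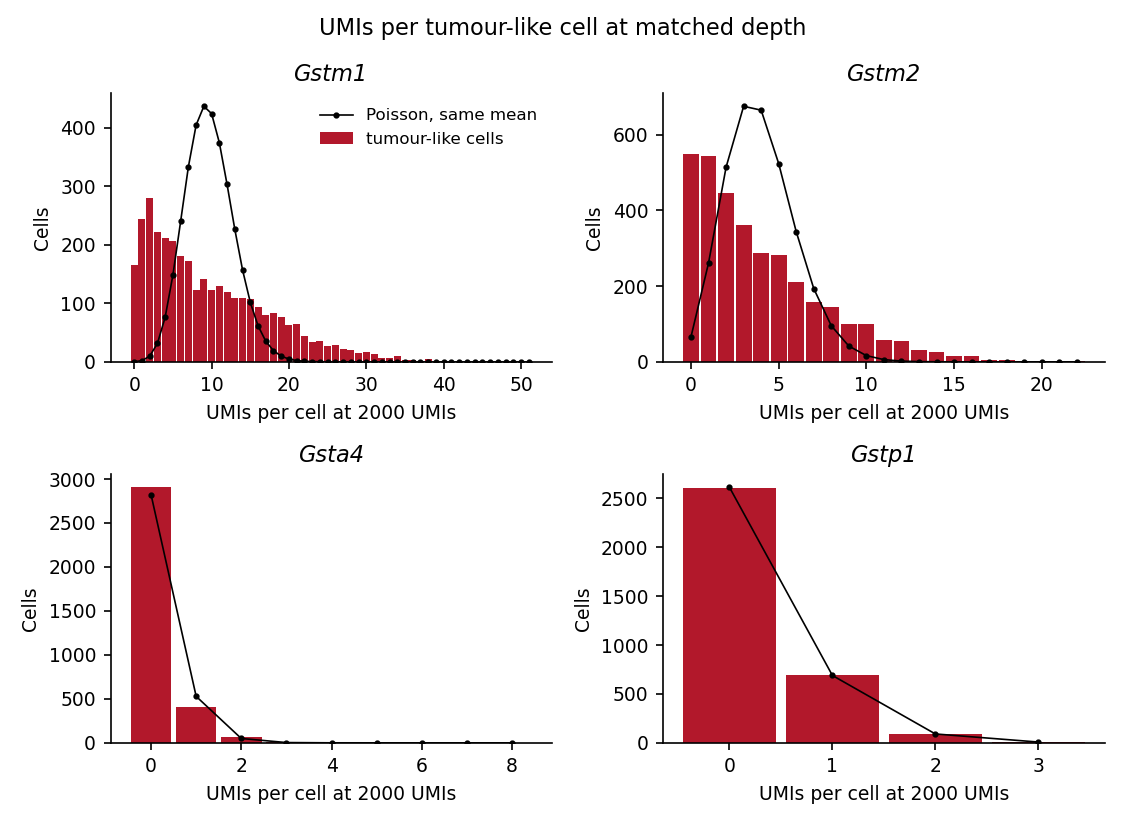
Number of tumour-like cells (vertical axis) by UMIs per cell after thinning to 2000 UMIs (horizontal axis) for Gstm1, Gstm2, Gsta4 and Gstp1; bars are the 3403 cells and the black line is a Poisson count with the same mean. Gstm1 runs from 0 to 51 UMIs with 165 cells at 0, while the Gstp1 bars follow the Poisson line.

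The mu class genes next to each other varied together. Over the 3403 thinned cells, the Pearson r of log2(UMIs + 1) between Gstm1 and Gstm2 was 0.707. A corrected correlation, on UMIs without the log and with the variance due to counting removed, was 0.888. It differs from r in scale as well as in the correction, so the gap is not due to counting noise alone. Gstm6 had r = 0.349 with Gstm1 and 0.322 with Gstm2, and corrected correlations of 0.715 and 0.665. Gstm1 and Mgst1 had r = 0.212, Gstm1 and Gsta4 r = 0.188. In all, 8 of 36 pairs of members had r of at least 0.1, and each of the 8 joined genes among Gstm1, Gstm2, Gstm6, Gsta4 and Mgst1. Members were chosen by their co-variation, so the count only describes them, and the share over pairs of all genes was not computed. Gstm5, in the same cluster, had r = 0.0439 with Gstm1, 0.0507 with Gstm2 and 0.0728 with Gstm6. The corrected correlations, on UMIs without the log, were 0.313, 0.349 and 0.812. For a gene with a mean of 0.116 UMI they rest on an excess variance that changed sign between settings. Both Gstm5 and Gstm6 were seen in 136 cells, where independent genes would give 104. Whether Gstm5 varies with its neighbours was thus not settled at this depth. Gstp1 had r = -0.00245 with Gstm1, and Mgst3 0.0379. These correlations come from cells of 1 library, carry no p-value, and are lowered by counting noise for scarce genes such as Gstm5. Free RNA, which holds all members in 1 ratio, enters every cell and its part in them was not tested.

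**Figure D3:**
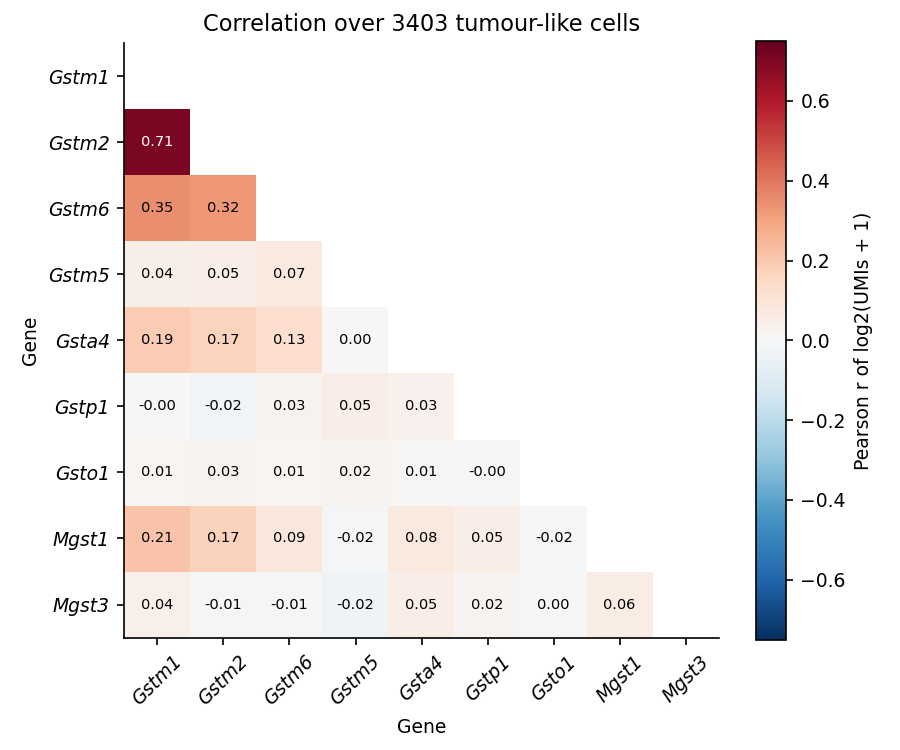
Pearson r of log2(UMIs + 1) for each of the 36 pairs of members over 3403 tumour-like cells thinned to 2000 UMIs; both axes list the genes. Gstm1, Gstm2 and Gstm6 form the dark corner, led by 0.71 for Gstm1 with Gstm2, while the rows of Gstm5, Gstp1, Gsto1 and Mgst3 are near 0.

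The same cells grouped by their Gstm1 count show how far each member went along with it. In the groups with 0, 1 to 4, 5 to 9, 10 to 19 and 20 to 51 Gstm1 UMIs there were 165, 956, 822, 1032 and 428 cells. Mean Gstm2 in those groups was 0.630, 1.30, 3.05, 5.76 and 8.43 UMIs. Mean Gstm6 was 0.0545, 0.144, 0.293, 0.578 and 0.928 UMIs, and mean Gsta4 0.0606, 0.0900, 0.140, 0.271 and 0.341. Mgst1 climbed far less, at 1.55, 1.70, 1.83, 2.26 and 2.75 UMIs. Mgst3 rose a little, at 0.127, 0.142, 0.159, 0.167 and 0.189 UMIs, and Gstm5 was at 0.121, 0.0889, 0.117, 0.130 and 0.138. Gstp1 showed no steady climb, at 0.206, 0.292, 0.264, 0.246 and 0.264 UMIs. Cells without Gstm1 were thus not empty of the family: 43.0% of them had a Gstm2 UMI and 72.7% an Mgst1 UMI. The median depth before thinning was alike in the 5 groups, between 5063 and 5336.5 UMIs. The median mitochondrial share was 3.86% in the highest group and 2.90% in the lowest, and the mean of 4 cycling genes was 0.0350 UMIs per cell in the highest group and 0.273 in the lowest. The part of either in the pattern was not tested.

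**Figure D4:**
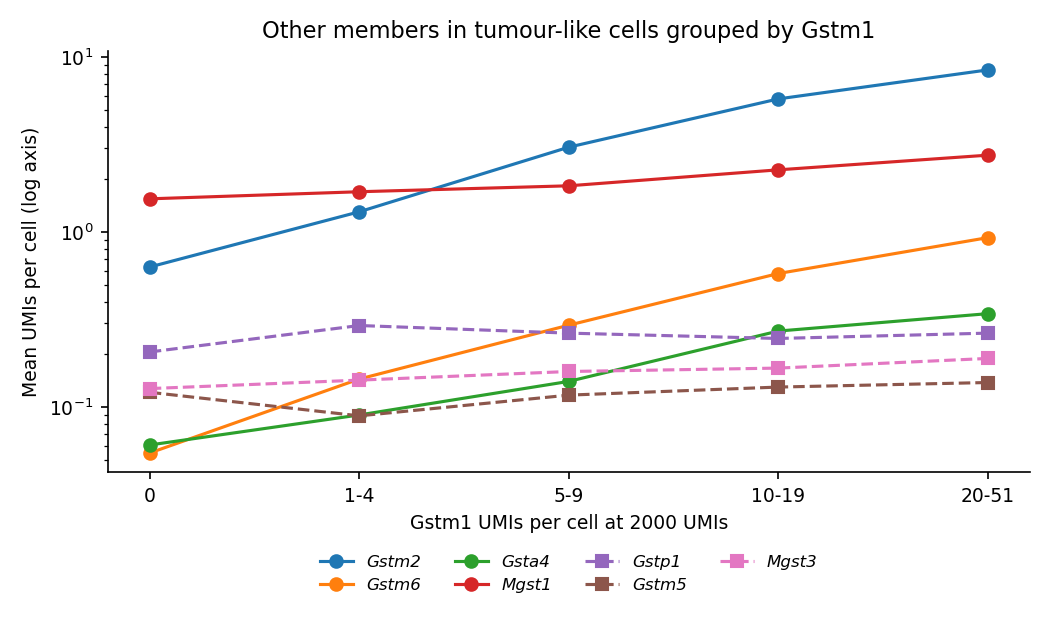
Mean UMIs per cell (log axis) of 7 members in tumour-like cells grouped by their Gstm1 UMIs (horizontal axis), all thinned to 2000 UMIs. Gstm2 climbs to 8.43 UMIs in the highest group, against 0.630 in the lowest, and Gstm6 and Gsta4 climb as well. Of the dashed lines, Mgst3 rises gently, to 0.189 UMIs against 0.127, Gstm5 lies between 0.0889 and 0.138, and Gstp1 shows no steady climb.

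The genes beside the mu class cluster were too scarce to compare with it. Within 200 kb on either side, Csf1, Ampd2 and Gnai3 had r of 0.00381, 0.0181 and 0.0271 with the sum of Gstm1 and Gstm2, on means under 0.05 UMI per cell. Inside the cluster, Gstm3 and Gstm4 had under 0.01 UMI per cell, while Gstm7 had r = 0.175 at a mean of 0.0976 UMI.

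Outside the family, 165 of 1976 genes (8.35%) with a mean of at least 0.1 UMI had r of at least 0.1 with the sum of Gstm1 and Gstm2, and 119 (6.02%) had r of -0.1 or below. Against that background, 5 of the 8 members tested had r of at least 0.1, but Gstm1 and Gstm2 are in the sum itself, and the others, Gstm6 (0.356), Mgst1 (0.210) and Gsta4 (0.190), were chosen by their co-variation. The most similar gene was Cst12, a cystatin-like protease inhibitor (r = 0.515), and the next was Chchd10 (0.509), a protein of the mitochondrial intermembrane space. Then came mt-Co1 (0.345), a subunit of cytochrome oxidase, the beta-defensin Defb19 (0.344), Chchd2 (0.313), Kctd14 (0.289), Dbi (0.279), Ndufb4 (0.269), H3f3b (0.266) and Amhr2 (0.263), the receptor for anti-Müllerian hormone. The lowest were Rplp0 (-0.312), Ptma (-0.305), Crip1 (-0.304), Rplp1 (-0.299) and Rps20 (-0.295), of which 3 encode ribosomal proteins. Cst12 was also among the 3 genes closest to Gstm6 (0.254) and to Mgst1 (0.201), and Defb19 among those closest to Gsta4 (0.174). The gene closest to Gstm5 was its cluster neighbour Gstm6 (0.0728). The genes closest to Gstp1 and Mgst3 were Fth1 (0.0822) and Ubb (0.0718).

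Of the NRF2 targets abundant enough to compare, 2 of 8 had r of at least 0.1 with Gstm1 and Gstm2: Akr1b8 (0.241) and Taldo1 (0.160). Of the glutathione synthesis and recycling genes, 1 of 2 did, Me1 (0.205), and of the peroxidase group 0 of 8 did, the highest being Esd at 0.0569. The keratin-set genes of the gate ranged between -0.132 and 0.0245.

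Tumour-like cells were also clustered with all glutathione transferase genes left out, which gave 10 clusters. Cluster 1 (945 cells), led by Defb19, Actr3b and Gm26532, had the highest levels of 3 mu class members, with Gstm1 at 8782 CPM, Gstm2 at 3648 CPM and Gstm6 at 373 CPM. It also had the highest Gsta4, at 162 CPM. Cluster 2 (808 cells, led by Ifitm1 and Igfbp4) had Gstm1 at 4695 CPM, cluster 4 (498 cells, Spry2 and Actb) 3134 CPM and cluster 3 (662 cells, Tm4sf5 and Car4) 2354 CPM. Cluster 5 (323 cells), led by the cell division genes Top2a and Birc5, had 2587 CPM. The 36 cells of cluster 10, led by Col1a2 and Saa3, were lowest at 1331 CPM, so that the highest and lowest clusters were 6.60-fold apart (5.75 to 7.61). For Gstm2 that gap was 7.49-fold, for Gstm6 4.10-fold and for Mgst1 2.56-fold. Clusters 8, 9 and 10 (73, 54 and 36 cells) were led by haemoglobin genes, by Cd52 and by Col1a2, genes of other cell types, and mixing in their barcodes was not tested. Without them, a choice made after the data were seen, the lowest Gstm1 level was that of cluster 3, and the gap was 3.73-fold (3.65 to 3.82) for Gstm1, 4.31-fold for Gstm2, 3.29-fold for Gstm6 and 2.26-fold for Mgst1. For Gsta4 the gap was 5.08-fold over all clusters and 3.16-fold without those 3.

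Over all clusters, Gstm1, Gstm2 and Gstm6 were highest in cluster 1 and lowest in cluster 10, and Gsta4 was also highest in cluster 1. Without the clusters led by haemoglobin genes, Cd52 or Col1a2, Gstm1 and Gstm2 were lowest in cluster 3. Gstm6 was then lowest in cluster 6 at 113 CPM (85.0 to 148), an interval that covers its 121 CPM in cluster 3. Whether the low end was shared was thus not settled. Mgst1 was highest in cluster 6 (1345 CPM, 186 cells), which was led by mt-Cytb and Kcnq1ot1 and whose median mitochondrial share was 11.2%. Gstm1 there was at 3191 CPM, below cluster 1. Gsta4 in cluster 7 (75 cells, led by Sncg and Cdkn1a) was at 152 CPM, near its level in cluster 1. Gstp1 was highest in cluster 10 at 240 CPM, where Gstm1, Gstm2 and Gstm6 were lowest, and lay between 109 and 143 CPM in the other 9 clusters. For Gstm5 the interval of the ratio of the highest to the lowest cluster (0.910 to 4.63) spanned 1.

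**Figure D5:**
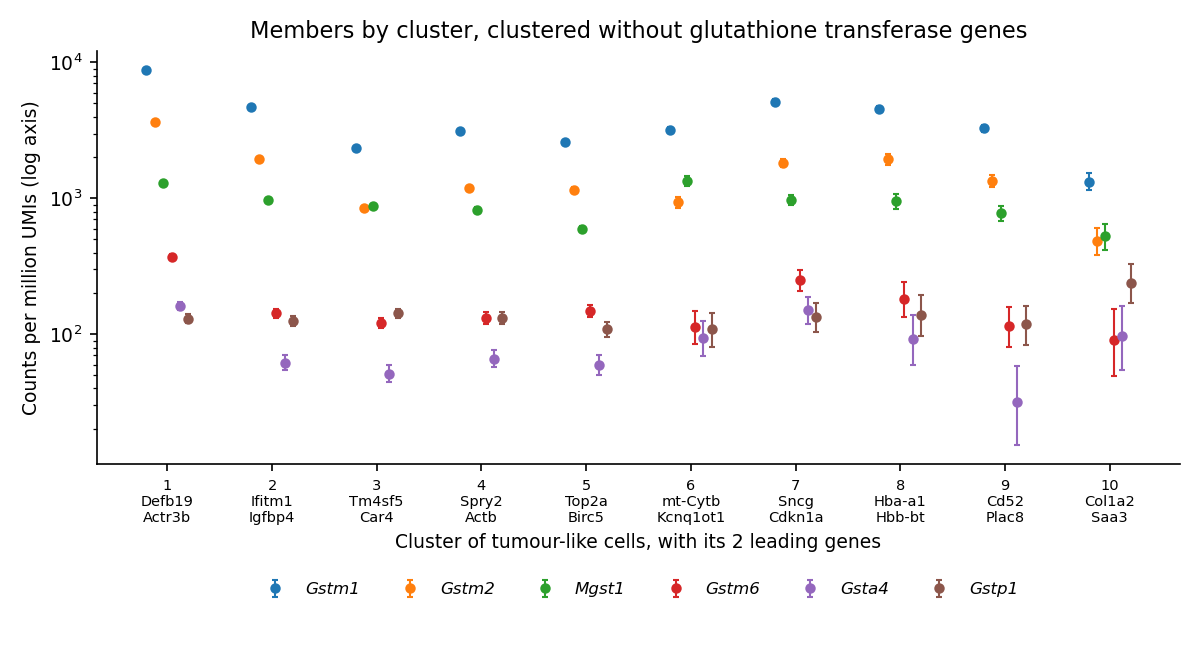
Level of 6 members in each of 10 clusters of tumour-like cells, in CPM on a log axis with exact Poisson 95% intervals; the horizontal axis gives the cluster and its 2 leading genes. Gstm1 and Gstm2 peak in cluster 1 at 8782 and 3648 CPM, while Gstp1 is highest in cluster 10 at 240 CPM.

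Part of the spread lay between clusters and part within them. Differences between cluster means made up 48.6% of the Gstm1 variance beyond counting noise and 51.1% of that of Gstm2. Within cluster 1 the median was 17 Gstm1 UMIs with quartiles of 13 and 22, and the excess CV2 was 0.124. Within cluster 3 the median was 3 with quartiles of 1 and 6, and the excess was 0.843. Gstm1 and Gstm2 still varied together inside clusters, with r between 0.467 in cluster 1 and 0.676 in cluster 7.

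Cycling cells had less of most members. The 191 tumour-like cells with at least 3 UMIs of Top2a, Mki67, Birc5 and Cdk1 had Gstm1 at 2776 CPM, against 4958 CPM in 3118 cells with none, a ratio of 0.560 (0.543 to 0.577). Mgst1 was at 598 CPM in cycling cells and 1021 CPM in non-cycling cells (0.586, 0.548 to 0.625). Gstm2 had a ratio of 0.637, Mgst3 0.641, Gstp1 0.727, Gsta4 0.787 and Gstm6 0.872. For Gstm5 the interval of the ratio (0.630 to 1.04) spanned 1, and Gsto1 had too few UMIs to compare. Cycling cells were deeper, with a median of 7825 UMIs against 4823.5 in non-cycling cells.

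Several members differed with mitochondrial share. In the 454 tumour-like cells with 5% to 10% mitochondrial UMIs, Gsta4 was at 138 CPM, against 82.2 CPM in the 3023 cells with up to 5%, a ratio of 1.68 (1.49 to 1.90). Gstm2 had a ratio of 1.46, Gstm1 1.33, Gstm6 1.31 and Mgst1 1.22, and Gstp1 had 0.875. For Gstm5, Mgst3 and Gsto1 the intervals spanned 1. In the 183 cells with 10% to 15%, Mgst1 was at 1701 CPM, against 929 CPM in cells with up to 5% (ratio 1.83, 1.70 to 1.97), whereas Gstm1 had a ratio of 0.948, Gstm2 0.859 and Gsta4 1.05 (0.734 to 1.45). Those cells were shallow, with a median of 1775 UMIs.

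Within macrophages, cells with UMIs of Pf4, Arg1 or Saa3 at a rate of at least 1 per 1000 (865 cells) were set against the other 211. Mgst1 was at 345 CPM in the first and 187 CPM in the others, a ratio of 1.84 (1.39 to 2.49). Gstm1 was at 534 CPM in the first and 675 CPM in the others (0.792, 0.677 to 0.930), with most of either level of the size free RNA would give. Gsto1 was at 99.6 CPM in the first and 72.7 CPM in the others, with an interval of the ratio (0.867 to 2.27) that spans 1.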

How the data were processed

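The authors deposited a matrix of UMI counts, made with a 10x Genomics assay per the labels. Its aligner, genome build and the transcript end read are each not given in the sources used here. The matrix held 737280 barcodes with no cell selection. The members and gene lists were chosen with earlier results of these data known.

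Kept cells had 500 to 19947 UMIs (median 3300). Class sums were given as CPM with exact Poisson 95% intervals, ratios with exact conditional binomial intervals and shares with Clopper-Pearson intervals. With 1 library there was no test. Genes were called past 2-fold. Doublets were left in; Scrublet (scanpy 1.11.5) marked 89 cells (1.38%), 32 of them tumour-like. Clusters used 2000 variable genes, 30 components, 15 neighbours and Leiden (leidenalg 0.10.2) at resolution 0.6. The computations were tested on simulated data. Positions came from GENCODE M21, which held 27645 of the 27998 gene identifiers. Motifs were chosen after the correlations had been seen. The 8 columns of the bulk table matched no label, so the planned edgeR comparison was not run.

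Named genes were the members, family genes with at least 50 UMIs in a class, the 10 highest and 5 lowest correlations with Gstm1 plus Gstm2, the 3 closest genes to each other member, and leading genes of clusters. Other genes named were chosen after their values were seen.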

Additional observations from a re-analysis of the deposited data

Results flagged for a closer look

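Barcodes left out for more than 15% mitochondrial UMIs still held the family's RNA, above the limit that a count of 0 allows. The 519 barcodes excluded on that ground alone were not gated by cell kind. Their median was 1095 UMIs, against 5007 in tumour-like cells, and the part of cell mix or depth in the differences was not tested. In these barcodes Gstm1 was at 3154 CPM (3025 to 3288), against 4709 CPM in tumour-like cells. Mgst1 was at 1647 CPM (1554 to 1744), against 969 CPM in tumour-like cells. Gsta4 was at 73.3 CPM (54.7 to 96.1), against 88.8 CPM in tumour-like cells. Gstm2 was at 885 CPM, Gstm6 at 108 CPM and Gstm5 at 28.2 CPM, against 1909, 198 and 54.5 CPM in tumour-like cells. Gstp1 was at 64.8 CPM and Mgst3 at 95.8 CPM, against 130 and 75.4 CPM in tumour-like cells.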

How the results depend on the processing

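The results were recomputed under other cell filters, gates, depths, clusterings and treatments of doublets and free RNA, and, as a choice made after the data were seen, without the clusters led by haemoglobin genes, Cd52 or Col1a2. Of 706 values, 578 moved little, 128 moved further and 0 of the called values changed sign. The stricter limit on UMIs per cell could not change the spread values or correlations, because thinning already left out the cells it removes. Its unchanged values of those kinds are among the 578 and say nothing about stability. Members more than 2-fold higher in tumour-like cells numbered 7 to 8: with the strictest macrophage gate Gstp1 was at 1.97-fold. Pairs with r of at least 0.1 numbered 7 to 11, and r of Gstm6 with Gsta4 ranged between 0.0686 and 0.189. For Gstm1 with Gstm2, r ranged between 0.585 and 0.795. The alternative without mesothelial and fibroblast markers also removed many cells for Dcn, which tumour-like cells held at 359 CPM. Depth limits Gsto1, Gstm5 and Gsta4 per cell. No paired analysis was possible because the groups with replicate numbers are in the bulk table, whose columns match no label. The alternatives planned for that table were not run.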
